A study of Mus musculus with 36 samples.

Results

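The nuclear-encoded subunits of oxidative phosphorylation were examined across retina and optic nerve of C57BL/6 mice. They were chosen by gene symbol alone (Nduf names of the a, b, c, s and v series, Sdh a to d, and names beginning with Uqcr, Cox4 to Cox8 or Atp5, with 10 pseudogene names that contain -ps left out), and numbered 85 of the 55487 genes in the count table. By symbol, 36 belonged to complex I, 4 to complex II, 8 to complex III, 19 to complex IV and 18 to complex V. Bulk RNA-seq covered 36 libraries, 12 each from retina, the unmyelinated optic nerve at the nerve head (UON) and the myelinated optic nerve behind it (MON). The groups were naïve mice, mice 3 days (3D) and 2 weeks (2W) after optic nerve (ON) crush, and mice 3D, 2W and 6 weeks (6W) after microbead injection to raise eye pressure, named glaucoma in the labels. No group carried a transgene or deletion, and per the study's methods the mice were young adults and the same animals gave all 3 tissues. Each group of each tissue was 1 library pooled from 2 female mice and 1 pooled from 2 male mice, so n = 2 pools throughout, the spread between pools included the sexes, and the naïve libraries were shared by all injury comparisons of a tissue.

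Oxidative phosphorylation takes place in the inner mitochondrial membrane. Complex I (NADH dehydrogenase) and complex II (succinate dehydrogenase) pass electrons to ubiquinone, complex III (cytochrome bc1) passes them on to cytochrome c, complex IV (cytochrome c oxidase) reduces oxygen, and complex V (ATP synthase) uses the resulting proton gradient to make ATP. Most subunits are encoded in the nucleus and a few, absent from complex II, in the mitochondrial genome. Photoreceptors are among the most oxygen-demanding cells known, and the unmyelinated segment of the optic nerve is known to be rich in mitochondria within its axons.

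Library totals ran from 16158723 to 78054205 estimated counts, a scale on which a read pair adds about 4 counts, and 76 of the 85 members averaged at least 2000 counts. Of the 85, 80 had counts in all 36 libraries, and 82 passed the filter on low counts in the naïve comparisons. Photoreceptor markers set the retina libraries apart, while the oligodendrocyte sums of UON and MON overlapped at the edge of their ranges. On counts scaled by library size (CPM), the summed photoreceptor markers were 69525 to 86984 in retina, at most 503 in UON and at most 226 in MON, and the oligodendrocyte sum was 17554 to 67741 CPM in MON, 1806 to 17692 in UON and 41.1 to 76.4 in retina. The 2 pools of UON crush 2W resembled each other least (Pearson r = 0.780 across genes on the log2 scale, against 0.877 to 0.958 in the other 17 groups), and the male pool of that group had the lowest oligodendrocyte sum and the highest skeletal muscle sum (60.7 CPM) of the UON libraries. In bulk tissue, fewer cells of a type and less RNA per cell cannot be told apart.

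Retina devoted more of its transcripts to these subunits than either nerve segment. On the deposited TPM, a level per transcript length scaled to one total in every library, the members together made up 4.57% of the female and 4.48% of the male naïve retina library, 2.53% and 2.55% of the naïve UON libraries, and 2.02% and 2.498% of the naïve MON libraries. Over all 12 libraries of a tissue the share was 3.42% to 4.75% in retina, 2.35% to 3.76% in UON and 2.02% to 2.73% in MON, so retina and MON did not overlap. UON reached into the range of retina through the male pool of crush 2W (3.76%), while its male pool of crush 3D was at 3.26% and its other 10 libraries were at 2.81% or less. The lowest retina value was the male pool of glaucoma 2W. By complex, the median share in retina, UON and MON was 1.69%, 0.957% and 0.864% for complex I, 0.481%, 0.299% and 0.267% for complex III, 0.893%, 0.574% and 0.508% for complex IV, and 1.22%, 0.618% and 0.563% for complex V. Complex II was the exception, with 0.0978% in retina, 0.109% in UON and 0.0863% in MON and ranges that overlapped among all 3 tissues.

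**Figure D1:**
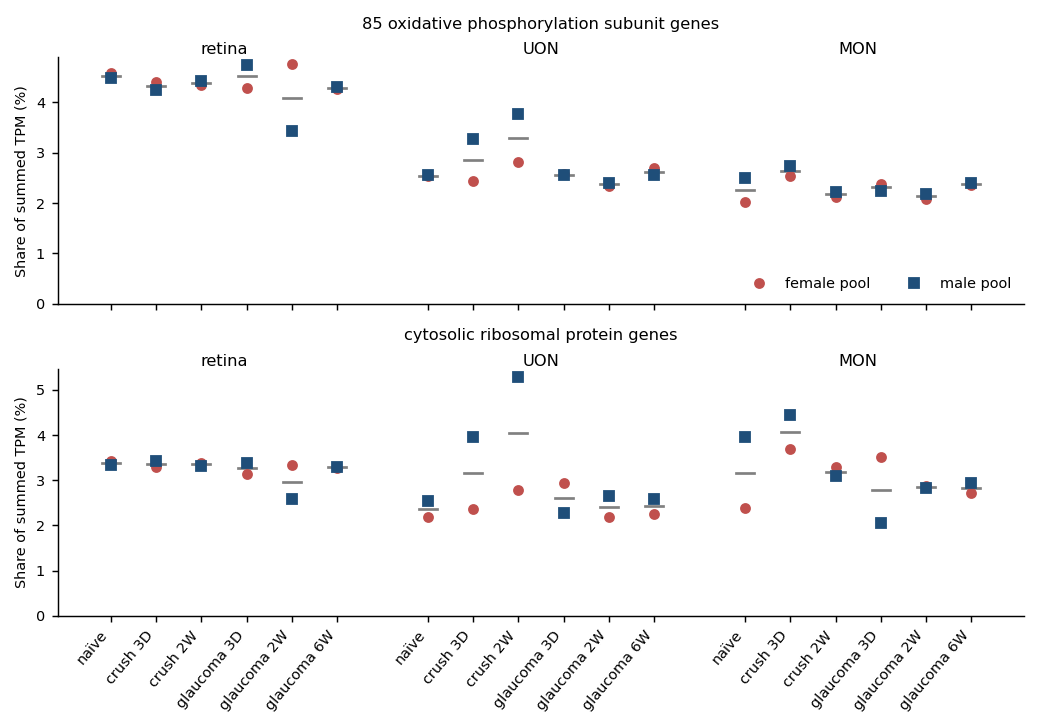
Share of TPM (percent, vertical axis) taken by the nuclear-encoded subunits in each of the 36 libraries, by tissue, treatment and time, with the female and the male pool drawn separately. Retina lay between 3.42% and 4.75%, MON between 2.02% and 2.73%, and the highest UON library, at 3.76%, was the male pool of crush 2W.

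The most abundant members were largely shared among tissues. In retina the highest median TPM was that of Atp5b, the catalytic beta subunit of ATP synthase (2008), followed by Cox8a (1765), Ndufa4 (1756), Cox4i1 (1377) and Ndufb8 (1271). In UON the order was Cox4i1 (1414), Cox8a (1034), Uqcr11 (934), Atp5b (744) and Cox6a1 (740), and in MON it was Cox4i1 (1100), Cox8a (858), Uqcr11 (788), Cox6a1 (732) and Atp5b (667). Cox4i1 and Cox8a, small structural subunits of cytochrome c oxidase, thus stood in the first 5 of every tissue. At the other end, Cox7b2 reached at most 1.83 TPM and Cox8c at most 0.98 TPM in any library, and the second gene listed under the symbol Atp5o had counts in 2 libraries.

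The first comparison asked how the naïve nerve head differs from naïve retina. In UON 25 of the 82 members tested were lower than in retina and 2 were higher at an adjusted p under 0.05 in edgeR's quasi-likelihood test, where 15.6% of all genes tested were called lower and 20.1% higher. With a log2 fold change beyond 1 as well, 11 members were lower and 1 was higher, against 13.5% and 18.2% of all genes. The median log2 fold change of the members was −0.51, that of all genes −0.17, and 70 of the 82 members lay below 0. Among the members called lower, the largest differences were in Ndufa4, in a subunit of the ATP synthase c-ring, and in a small ATP synthase subunit.

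Ndufa4 is named as a complex I subunit and is now known to associate with cytochrome c oxidase. Its TPM was 1823 in the female and 1773 in the male naïve retina pool, 420 and 235 in UON, and 263 and 363 in MON, with no overlap between retina and either nerve segment. The log2 fold change was −2.06 (SE 0.36, adjusted p = 0.0043, edgeR) in UON and −1.92 (SE 0.36, adjusted p = 0.0066) in MON against retina. Over all conditions retina ranged from 1133 to 2201 TPM (median 1756), UON from 235 to 841 (412) and MON from 263 to 456 (344). Among the other complex I subunits, Ndufa10 was at 383 and 401 TPM in naïve retina, 96.2 and 103 in UON and 101 and 84.4 in MON. Its log2 fold change in UON against retina was −1.53 (adjusted p = 0.0011, edgeR). Ndufv1, which carries the NADH site, had a smaller difference of −0.79 (SE 0.20, adjusted p = 0.019), from 422 and 395 TPM in retina to 182 and 180 TPM in UON. Ndufs1, the largest iron-sulphur subunit, gave −0.07 (SE 0.20, adjusted p = 0.81) and was not called. In all, 10 of 36 complex I subunits were lower in UON, with a median of −0.49 over the complex.

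In complex II 1 of the 4 subunits was called, and it was higher in the nerve head. Sdhb, its iron-sulphur subunit, was at 292 and 264 TPM in naïve retina, 420 and 427 in UON and 243 and 240 in MON. The UON pools were above those of retina by a log2 fold change of 0.90 (SE 0.21, adjusted p = 0.014, edgeR), and not called between MON and retina (0.28, adjusted p = 0.37). Sdha, the flavoprotein subunit, was at 379 and 409 TPM in retina and 413 and 390 in UON (log2 fold change 0.43, adjusted p = 0.24). The membrane anchors Sdhc and Sdhd gave −0.40 and 0.32 (adjusted p = 0.16 and 0.25). The call of Sdhb was lost whichever pool was left out (adjusted p = 0.059 to 0.21), and the median of the complex in UON against retina was 0.38.

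In complex III, Uqcrb, a small subunit near the ubiquinone site, was at 876 and 922 TPM in naïve retina, 344 and 372 in UON and 222 and 291 in MON, and its log2 fold change was −1.04 (adjusted p = 0.0089) in UON and −1.34 (adjusted p = 0.0033) in MON, by edgeR. The Rieske protein Uqcrfs1 was also lower in both, with −0.70 (adjusted p = 0.036) and −0.73 (adjusted p = 0.036). The core protein Uqcrc1 gave −0.50 (adjusted p = 0.13) and −0.58 (adjusted p = 0.093), so 2 of the 8 complex III members were called in each nerve segment. In complex IV, Cox5a was at 672 and 675 TPM in retina, 245 and 235 in UON and 189 and 209 in MON, with log2 fold changes of −1.20 (SE 0.20, adjusted p = 0.0036) and −1.28 (SE 0.20, adjusted p = 0.0031). Cox4i1, the ubiquitous isoform of subunit 4, gave 0.32 (adjusted p = 0.37) and 0.29 (adjusted p = 0.45). Complex IV as a whole had 5 lower and 1 higher of 17 tested in UON, with a median of −0.55.

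ATP synthase held the most calls for its size, with 8 of 17 tested subunits lower in UON (median −0.64) and 8 of 17 lower in MON (median −0.75). Atp5g3 encodes the c-ring subunit, which 3 genes (Atp5g1, Atp5g2 and Atp5g3) specify with the same mature protein. It was at 887 and 1048 TPM in naïve retina, 238 and 256 in UON and 286 and 329 in MON. The log2 fold change was −1.68 (SE 0.20, adjusted p = 7.2e-04, edgeR) in UON and −1.20 (SE 0.20, adjusted p = 0.0038) in MON. Atp5g1 also was lower in both (−1.14, adjusted p = 0.013, and −0.96, adjusted p = 0.031), whereas Atp5g2 was not called (−0.52, adjusted p = 0.14, and −0.21, adjusted p = 0.56). As a share of the TPM of the 3 c-ring genes, Atp5g2 made up 14.8% to 19.2% in the 12 retina libraries, 19.8% to 31.5% in UON and 19.0% to 33.4% in MON, so retina and UON did not overlap. Atp5mpl, a small proteolipid of ATP synthase, was at 1184 and 1222 TPM in retina, 334 and 323 in UON and 214 and 399 in MON (log2 fold change −1.57 and −1.51, adjusted p = 0.0055 and 0.0078, edgeR). The catalytic subunit Atp5b was at 2180 TPM in both naïve retina pools, 773 and 818 in UON and 679 and 574 in MON, with log2 fold changes of −1.13 (adjusted p = 0.010) and −1.30 (adjusted p = 0.0063). Its partner Atp5a1, the alpha subunit, gave −0.38 (adjusted p = 0.23) and −0.69 (adjusted p = 0.055), and was not called.

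In naïve MON, 23 of the 82 members were lower than in retina and 0 were higher (edgeR), where 12.7% of all genes were called lower and 18.3% higher. At an unadjusted p under 0.05, 37 were lower and 1 was higher, beside 18.1% and 22.8% of all genes. The median was −0.50 for the members and 0.00 for all genes, and 71 of 82 lay below 0. The median difference was −0.70 within the female pools and −0.33 within the male pools, and with each pool left out in turn the median ran from −0.69 to −0.29. The UON and MON comparisons share the same 2 retina libraries, so they are not independent of each other. With 2 pools a group the counts leaned on single libraries. The 27 calls of UON against retina became 11 without the female UON pool, 7 without the male UON pool, 6 without the female retina pool and 13 without the male retina pool, and the 23 calls of MON against retina became 9 and 14 without the female and the male retina pool. In those fits the members called lower were 6 to 13 in UON, beside 9.52% to 12.9% of all genes, and 9 and 14 in MON, beside 8.3% and 7.65%. Ndufa4, Cox5a, Atp5g3 and Atp5mpl stayed under 0.05 in both comparisons whichever pool was left out.

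**Figure D2:**
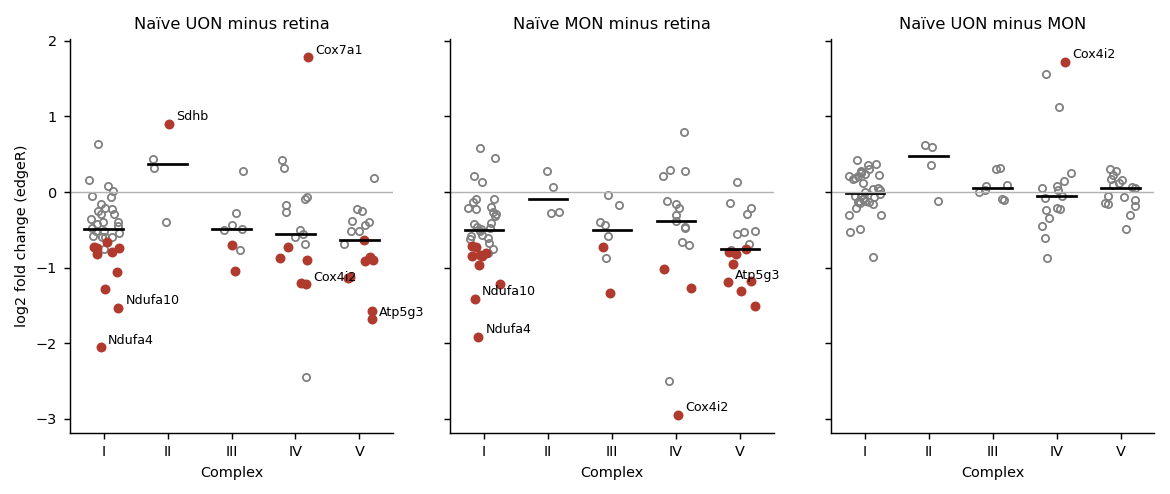
Log2 fold change (vertical axis, edgeR) of each tested member in naïve UON against retina, naïve MON against retina and naïve UON against MON, grouped by complex, with filled red points at an adjusted p under 0.05 and a black line at the median of each complex. Against retina the medians of complexes I, III, IV and V lay between −0.39 and −0.75 in both nerve segments, that of complex II was 0.38 in UON and −0.10 in MON, and between the nerve segments 1 member (Cox4i2) was called.

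The sum of photoreceptor markers moved with the members, being at least 69525 CPM in every retina library and at most 503 CPM in every nerve library, and tissue and cell types cannot be told apart here. Other mitochondrial lists were read beside the subunits. Of 44 assembly factors, 13 were lower and 1 was higher in UON than in retina (median −0.53), and 14 were lower and 0 higher in MON (median −0.64). They included the complex I factors Ndufaf5 (−2.64 in UON and −2.33 in MON) and Ndufaf2 (−2.08 and −1.66), while Sco2, a copper chaperone of complex IV, was higher in UON (1.20, adjusted p = 0.046, edgeR). Of 78 mitochondrial ribosomal proteins, 22 were lower and 2 higher in UON (median −0.35), and 16 were lower and 1 higher in MON (median −0.34). Cytosolic ribosomal proteins, which serve translation in general, had medians of −0.25 and 0.33 with 5 and 2 of 85 lower and 3 and 2 higher.

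The tricarboxylic acid cycle, which feeds complexes I and II, did not move as a block. Of its 18 genes 6 were higher and 3 lower in UON than in retina, and 3 were higher and 8 lower in MON. Idh2, the mitochondrial NADP-dependent isocitrate dehydrogenase, was higher in both (log2 fold change 3.55 and 2.97), as was Suclg2, the subunit of the GDP-forming succinyl-CoA ligase (2.89 and 2.61). Idh3b and Pdhb, of the NAD-dependent isocitrate dehydrogenase and pyruvate dehydrogenase, were lower in both (−0.86 and −1.22, and −1.21 and −1.40). Of 20 genes for electron carriers and nucleotide transport, 6 were lower and 4 higher in UON, and 6 were lower and 0 higher in MON. The lower ones included the phosphate carrier Slc25a3 (−1.23 and −1.75), the ADP/ATP carrier Slc25a5 (−1.43 and −1.70) and Cyc1 (−0.73 and −0.79). Cyc1 encodes cytochrome c1, a subunit of complex III that the name rule does not reach. Of 17 regulators of mitochondrial biogenesis, 7 were lower and 3 higher in UON, and 8 were lower and 0 higher in MON. Ppargc1a, which encodes the coactivator PGC-1alpha, was lower in both (−2.19 and −1.90), as were its relative Ppargc1b (−1.96 and −4.28) and the transcription factor gene Nrf1 (−0.91 and −1.0). The 3 higher in UON were Pprc1 (1.59), Polg (1.17) and Gabpa (1.11), so the regulators did not move as a block there. Also outside the name rule, Ndufa4l2, a hypoxia-inducible relative of Ndufa4, was higher in UON than in retina (3.07, SE 0.67, adjusted p = 0.011, edgeR).

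Between the naïve nerve segments few subunits were called. Of 82 members 1 was higher in UON than in MON and 0 were lower (edgeR), where 5.23% of all genes were called higher and 5.17% lower. At an unadjusted p under 0.05, 5 were higher and 3 lower, beside 12.5% and 12.2% of all genes. The median was 0.02 for the members and −0.06 for all genes. The members' value joined pools of opposite sign, with 0.21 in the female (60 of 82 above 0) and −0.06 in the male (48 of 82 below 0). With each pool left out in turn it ran from −0.15 to 0.23. The member called was Cox4i2, the isoform of subunit 4 that is known from lung and from cells at low oxygen. Its TPM was 24.4 in the female and 24.9 in the male UON pool, 6.83 and 6.12 in MON and 68.7 and 72.1 in retina. The log2 fold change was 1.73 in UON against MON (SE 0.31, adjusted p = 0.017, edgeR), and adjusted p was 0.051 when the male UON pool was left out. Against retina it was −1.22 in UON (SE 0.30, adjusted p = 0.018, and 0.11 to 0.14 with each pool left out in turn) and −2.95 in MON (SE 0.32, adjusted p = 5.2e-04). Cox4i2 therefore stood in the order retina, UON, MON. As a share of Cox4i1 and Cox4i2 together it made up 4.53% to 6.19% in the 12 retina libraries, 1.31% to 2.2% in UON and 0.193% to 1.62% in MON.

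Cox7a1, the heart and skeletal muscle isoform of subunit 7a, had a different order. It was at 50.8 and 47.9 TPM in naïve UON, 17.03 and 18.2 in retina and 10.9 and 18.8 in MON, so UON was above both. The log2 fold change was 1.78 in UON against retina (SE 0.46, adjusted p = 0.021, edgeR) and 1.57 against MON (SE 0.46, adjusted p = 0.081), the second of which was not called. The first was no longer called without the female UON pool (adjusted p = 0.14), the female retina pool (0.060) or the male retina pool (0.11). In all conditions Cox7a1 lay between 37.6 and 168 TPM in UON (median 59.4), 13.3 and 30.7 in retina (20.3) and 3.45 and 28.4 in MON (17.97), so the 12 UON libraries were above all 24 others. Its share of Cox7a1 and Cox7a2 together was 11.8% to 23.4% in UON, 2.70% to 8.81% in retina and 1.07% to 17.2% in MON. The summed pericyte and smooth muscle markers were 132 to 440 CPM in UON, 80.0 to 139 in MON and 60.3 to 79.6 in retina, and the summed fibroblast markers 2198 to 5041, 430.4 to 1455 and 15.3 to 31.6. Summed skeletal muscle markers were 7.10 to 60.7 CPM in UON and 14.9 to 42.1 in MON. The part of these cells in the level of Cox7a1 was not tested. Cox6b2, the isoform of subunit 6b known from testis, took 4.58% to 19.99% of Cox6b1 and Cox6b2 in UON, 3.15% to 5.22% in retina and 2.42% to 9.21% in MON. Cox8b, the muscle isoform of subunit 8, reached at most 0.707% of Cox8a and Cox8b in any library.

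**Figure D3:**
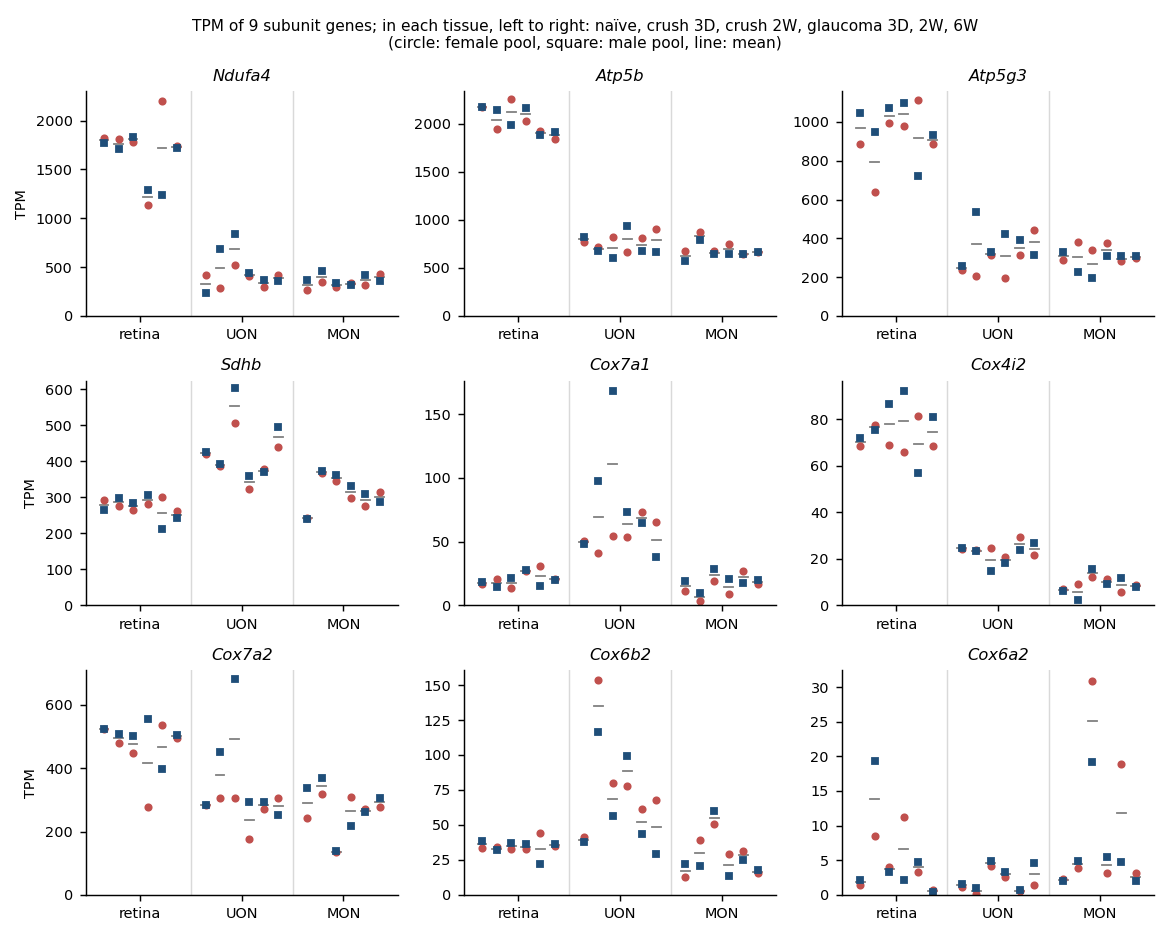
TPM (vertical axis) of 9 named members in every library, by tissue and group, with circles for female pools, squares for male pools and a line at the mean of the 2 pools. Ndufa4, Atp5b and Atp5g3 were above both nerve segments in every retina library, Cox7a1 was above 37 TPM in every UON library and below it elsewhere, and Cox6a2 reached its highest value of 30.9 TPM in MON at crush 2W.

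Setting all 12 libraries of a tissue against all 12 of another, without regard to injury, left few members apart on CPM. The CPM of these comparisons used library sizes multiplied by TMM factors, and not library size alone. In retina 6 members (among them Ndufa10, Uqcrc1, Cox4i2 and Atp5b) were above every UON library and 3 (Ndufa13, Sdhb and Cox7a1) were below every one, against 15.3% and 16.4% of all genes. Retina was above every MON library for 11 members, among them Ndufa10, Ndufa4, Uqcrb, Cox4i2, Atp5b and Atp5g3, and below for Sdhb, against 15.1% and 16.1% of all genes. On TPM the same setting gave 22 members higher and 2 lower in retina against UON, beside 23.2% and 11.1% of all genes, and 50 higher and 0 lower against MON, beside 23.6% and 10.8%. The scale therefore decided how many members stood apart between retina and either nerve segment. The edgeR log2 fold changes also rest on TMM factors, computed within each fit. UON was above every MON library for Cox4i2 and Cox7a1 on CPM (1.39% of all genes) and for Ndufa7 and Cox7a1 on TPM (1.16%).

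Promoters of members that differed between tissues are shown for the 2 members called lower in UON than in retina by the largest log2 fold change (Ndufa4 and Atp5g3) and for the 2 that were called higher in UON (Sdhb and Cox7a1). Each runs from 250 bases before to 50 bases after the annotated start, 5′ to 3′ on the gene's strand, in RefSeq's GRCm38.p6 annotation. Capitals mark a match to GCGCANGCG, the core of the NRF1 recognition sequence with 1 free base, or to CCGGAAG, the core recognised by ETS factors, on either strand. The windows are chr6:11907401-11907700 on the minus strand for Ndufa4, chr2:73911277-73911576 on the minus strand for Atp5g3, chr4:140961021-140961320 on the plus strand for Sdhb and chr7:30183921-30184220 on the plus strand for Cox7a1.
Ndufa4: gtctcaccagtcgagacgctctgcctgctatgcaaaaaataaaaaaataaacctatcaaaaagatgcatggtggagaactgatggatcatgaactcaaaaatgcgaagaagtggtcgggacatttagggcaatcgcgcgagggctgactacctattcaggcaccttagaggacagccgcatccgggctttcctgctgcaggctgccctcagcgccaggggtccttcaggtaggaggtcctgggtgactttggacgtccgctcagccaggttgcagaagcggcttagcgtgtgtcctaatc
Atp5g3: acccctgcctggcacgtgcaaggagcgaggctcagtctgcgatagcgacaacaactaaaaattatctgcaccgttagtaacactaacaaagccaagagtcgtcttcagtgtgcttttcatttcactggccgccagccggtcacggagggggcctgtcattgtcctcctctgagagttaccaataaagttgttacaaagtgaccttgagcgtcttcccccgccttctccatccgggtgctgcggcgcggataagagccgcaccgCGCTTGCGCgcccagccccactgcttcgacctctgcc
Sdhb: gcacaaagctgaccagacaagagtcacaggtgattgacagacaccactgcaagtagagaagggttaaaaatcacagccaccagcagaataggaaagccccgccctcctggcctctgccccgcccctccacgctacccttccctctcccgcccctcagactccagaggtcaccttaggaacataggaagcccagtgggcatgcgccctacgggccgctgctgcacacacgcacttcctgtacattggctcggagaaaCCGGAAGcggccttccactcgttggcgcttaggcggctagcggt
Cox7a1: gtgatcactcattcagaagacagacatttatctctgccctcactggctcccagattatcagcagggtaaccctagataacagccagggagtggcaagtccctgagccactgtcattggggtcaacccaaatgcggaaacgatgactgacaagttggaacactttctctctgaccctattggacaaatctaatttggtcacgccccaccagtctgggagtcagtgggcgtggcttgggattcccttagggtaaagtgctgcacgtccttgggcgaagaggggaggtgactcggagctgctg
Atp5g3 held the NRF1 core at base 14 from the start and Sdhb the ETS core at base 7, and neither set of letters was found in the windows of Ndufa4 and Cox7a1.

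Promoter windows were found for 68 member symbols (73 windows) and not for 16. The NRF1 core with 1 free base was in 21 of the 73 windows (28.8%), against 6.25% of all 32851 windows in the table, and GCGCATGCG, which it includes, in 8 (11%, against 1.75%). The ETS core was in 17 (23.3%, against 8.86%). The letters AAGATGGC, which hold the core bound by YY1, were in 10 (13.7%, against 2.75%), of which 7 were complex I genes. TATAAA was in 9 (12.3%, against 13.6%), and the median GC content was 57.3% against 52.7%. All motifs were searched on both strands, and matches can overlap the letters of another motif. Cox8b carried TATAAA at base 5 from its annotated start.

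Injury moved few single members past the test. Of 15 comparisons with naïve tissue (3 tissues, crush at 3D and 2W, glaucoma at 3D, 2W and 6W), 14 gave 0 members at an adjusted p under 0.05 in edgeR and MON at crush 2W gave 1. In those 14, the share of all genes called in either direction was 0.0% for all UON and MON glaucoma comparisons, UON crush 3D and retina glaucoma 2W, 0.0281% for UON crush 2W, 4.26% for MON crush 3D, 0.0221% and 0.335% for retina crush 3D and 2W, and 0.00429% and 0.00858% for retina glaucoma 3D and 6W. At an unadjusted p under 0.05, UON crush 2W gave 13 members higher, beside 3.79% of all genes, and 0 lower. Each of the other 13 gave at most 4, and for these the share of all genes at that threshold is not given here. DESeq2 called 1 member each in UON crush 3D (Cox6b2), retina crush 3D (Cox6a2), retina crush 2W (Atp5l) and retina glaucoma 3D (Ndufs4), and 0 in the other 10. The shares above are from edgeR, and those of all genes called by DESeq2 are not given here. MON crush 3D, where 852 of 19988 genes were called, thus had 0 of 81 members among them, with a member median of 0.19 and a lowest adjusted p of 0.19 for Cox5a (log2 fold change 0.67). Within the female pools the median difference of the members was 0.15 (58 of 81 above 0), and within the male pools −0.01 (41 of 81 below 0). All 10 proliferation markers rose in that same comparison. Of the other mitochondrial lists, Coq2, an enzyme of ubiquinone synthesis, fell by 2.53 on the log2 scale there.

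In MON at crush 2W the member that rose was Cox6a2, the heart and skeletal muscle isoform of subunit 6a, where 2.13% of all genes were called higher and 0.595% lower. Its TPM was 30.9 in the female and 19.2 in the male crush pool against 2.23 and 1.96 in naïve MON. The log2 fold change was 3.41 (SE 0.58, adjusted p = 0.035, edgeR), from 189 and 250 counts after crush and 61 and 15 counts in naïve MON, and the call was lost without the female (adjusted p = 0.20) or the male (0.16) naïve pool and in the fit to all 36 libraries (0.0501). Cox6a2 also stood at 18.9 and 4.67 TPM in MON at glaucoma 2W. In retina it was at 8.46 and 19.3 TPM at crush 3D against 1.37 and 2.17 in naïve retina (log2 fold change 2.84, adjusted p = 0.28 in edgeR, and 0.0022 in DESeq2). Retina at glaucoma 3D had 11.2 TPM in the female and 2.15 in the male pool (log2 fold change 1.62, SE 0.82, adjusted p = 0.86, edgeR). In MON it stayed at most 4.57% of Cox6a1 and Cox6a2 together. Cox6a2 (chr7:128205435-128206387, GRCm38, minus strand) is overlapped by Itgad on the opposite strand, and the counting is not stated to use strand, so reads of the 2 genes cannot be told apart. Itgad was listed at 5.50 and 2.03 TPM in MON at crush 2W against 8.51 and 10.1 in naïve MON, and at 0.03 and 0 in retina at crush 3D. The summed skeletal muscle markers were 20.4 and 15.8 CPM in MON at crush 2W and 20.1 and 42.1 in naïve MON.

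Other isoforms of cytochrome c oxidase came next in MON at crush 2W. Cox7a2, the widely expressed isoform of subunit 7a, was at 135 and 137 TPM after crush against 242 and 336 in naïve MON, with a log2 fold change of −1.21 (SE 0.27, adjusted p = 0.065, edgeR, and 0.0030 in DESeq2). Cox6b2 was at 50.3 and 60.01 TPM against 12.4 and 21.9 (log2 fold change 1.61, SE 0.52, adjusted p = 0.17, and 0.047 in DESeq2). In UON, Cox6b2 was at 153 and 117 TPM at crush 3D against 41.1 and 37.5 in naïve UON. Both crush pools were above both naïve pools, yet with a log2 fold change of 1.82 (SE 0.35) the adjusted p was 0.46 in edgeR and 0.0022 in DESeq2. At glaucoma 3D in UON, both pools also were above both naïve pools for Cox6b2 (log2 fold change 1.20, SE 0.40, not called). Crush against glaucoma at 3D gave 0.64 (SE 0.37), also not called. The summed microglia and macrophage markers were 9297 and 5284 CPM in MON at crush 2W against 1610 and 1817 in naïve MON, 6 of the 12 of them having risen, and 2 of the 12 oligodendrocyte markers fell. The part of these cells in the isoform levels was not tested.

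UON at crush 2W was the condition in which the members as a group stood farthest from naïve tissue. Their median log2 fold change was 0.65, that of all genes −0.09, and 76 of 82 lay above 0. Both crush pools were above both naïve pools for 69 of the 82, where this held for 20.2% of all genes, and an unadjusted p under 0.05 was reached by 13, against 3.79% of all genes. No member passed the adjusted test in edgeR, the lowest adjusted p being 0.49 for Atp5l (a subunit of the ATP synthase membrane part, 492 and 841 TPM against 269 and 410, log2 fold change 1.19, SE 0.34). By complex the medians were 0.65, 0.49, 0.76, 0.84 and 0.67 for complexes I to V. Size differed between the pools. Within the female pools the median difference of the members was 0.27 and within the male pools 1.03, while that of all genes was −0.02 and −0.04, and with each pool left out in turn the median ran from 0.30 to 1.01.

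The members did not move alone in UON at crush 2W. The median of the cytosolic ribosomal proteins was 1.05, with 85 of 85 above 0 (0.55 in the female and 1.56 in the male pools), and that of the mitochondrial ribosomal proteins was 0.59, with 74 of 78 above 0. The assembly factors had 0.25 and the biogenesis regulators −0.33. Short transcripts behaved likewise. Genes with a transcript under 1000 bases, members left out, had a median of 0.24 and longer ones −0.18, and the members' median transcript length was 645 bases against 1949 for all coding genes and 711.5 for cytosolic ribosomal proteins. Cytosolic ribosomal proteins took 5.29% of the TPM of the male UON crush 2W pool and 3.95% of the male crush 3D pool, against 2.18% to 2.94% in the other 10 UON libraries. The parts of transcript length, cell makeup and this library in the members' levels were not tested.

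**Figure D4:**
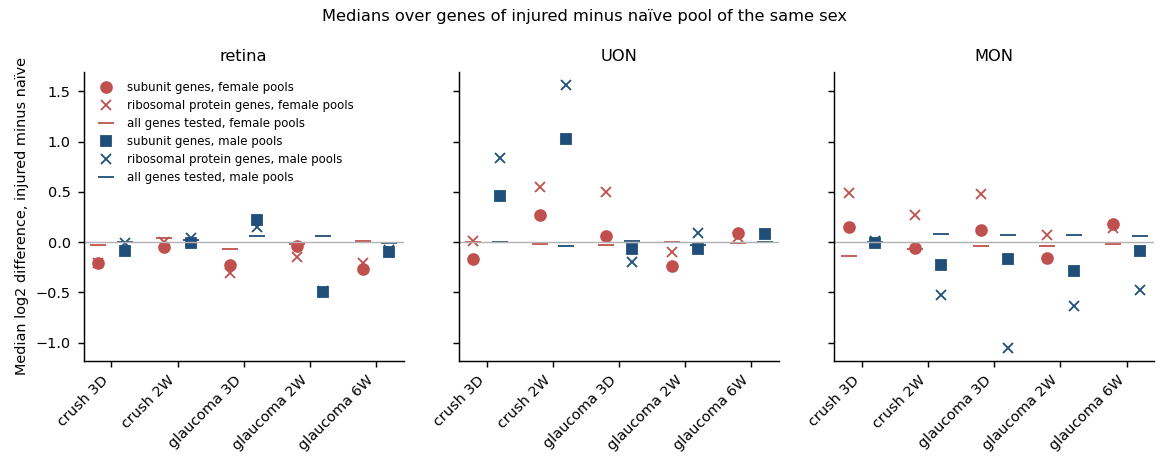
Median log2 difference from the naïve pool of the same sex (vertical axis) for the subunits, the cytosolic ribosomal proteins and all genes, by tissue, injury and time, shown for female and male pools. In UON at crush 2W the subunits were at 0.27 in the female and 1.03 in the male pools and the ribosomal proteins at 0.55 and 1.56, while all genes stayed at −0.02 and −0.04.

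Setting crush against glaucoma in UON at 2W, which does not use the naïve libraries as the reference, gave a member median of 0.82, with 79 of 82 above 0. It was 0.53 within the female pools and 1.11 within the male pools, and with each pool left out in turn it ran from 0.49 to 1.09. The 2 crush pools are those of the comparison with naïve UON, so the 2 comparisons are not independent of each other. Both crush pools were above both glaucoma pools for 69 of 82 (16.5% of all genes), 50 members had an unadjusted p under 0.05 with crush higher (5.15% of all genes), and 0 passed the adjusted test in edgeR (0.0418% of all genes were called, 10 in number and all lower). DESeq2 called 1, Atp5md, a small subunit of the ATP synthase membrane part. Its TPM was 474 and 1060 after crush and 325 and 281 in glaucoma, with a log2 fold change of 1.63 (SE 0.41, adjusted p = 0.35 in edgeR and 0.026 in DESeq2). Fitting all 36 libraries together called 21 of 83 members, all higher, beside 0.88% of all genes called higher. Leaving out the female UON crush 2W pool, so that the male pool stood alone for crush, called 17 of 82, all higher, beside 0.901% of all genes. The corresponding medians were 0.15 at 3D in UON, 0.14 and 0.08 at 3D and 2W in MON, and −0.12 and 0.22 in retina. The female and male pools differed in sign in UON at 3D (−0.26 and 0.56) and in retina at 3D (0.04 and −0.31) and 2W (−0.02 and 0.53). There were 0 members called in any of these 5 (edgeR and DESeq2) and at most 4 at an unadjusted p under 0.05. Of all genes, 0.0%, 0.0162%, 0.0485%, 0.0081% and 0.113% were called in them by edgeR's adjusted test, and the shares at the unadjusted threshold are not given here.

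Whether UON and MON responded differently was tested directly. At crush 2W this test uses the same UON crush pools again, so it is not independent of the comparisons above. For crush at 2W the difference in response (UON minus MON) had a median of 0.74 over the 82 members and −0.11 over all genes, with 23 members at an unadjusted p under 0.05 (all with UON higher, 3.73% of all genes), and 0 passed the adjusted test in edgeR, as did 0.0% of all genes. Cox7a2 came closest (2.16, SE 0.49, adjusted p = 0.15). It was at 305 and 682 TPM in UON at crush 2W against 284 and 284 in naïve UON, while in MON it was at 135 and 137 against 242 and 336. DESeq2 called this difference (adjusted p = 0.0063), as did the fit to all 36 libraries (0.038). Without the female UON crush 2W pool 6 of 83 members were called, all with UON higher, beside 0.523% of all genes, and with each pool left out in turn the median ran from 0.54 to 0.93. The differences in response to crush at 3D and to glaucoma at 3D, 2W and 6W had medians of 0.05, 0.06, 0.00 and 0.08. In each, 0 members were called by edgeR and DESeq2, beside 0.012% of all genes (edgeR) for crush at 3D and 0.0% for the others. At most 2 reached an unadjusted p under 0.05, a threshold at which the share of all genes is not given here.

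In retina the members' medians after injury lay at or slightly below 0, and 0 members were called by edgeR. The median was −0.14 at crush 3D, with 71 of 83 below 0 and both crush pools below both naïve pools for 51 (20.7% of all genes). It was −0.06 at crush 2W, 0.00 at glaucoma 3D, −0.27 at glaucoma 2W (78 of 82 below 0, without overlap for 20, and 18.1% of all genes) and −0.18 at glaucoma 6W (75 of 82 below 0, without overlap for 54, and 21.9% of all genes). At crush 3D the members were at −0.21 within the female and −0.09 within the male pools, beside −0.21 and −0.01 for the cytosolic ribosomal proteins. At glaucoma 6W the members were at −0.27 and −0.10, beside −0.21 and −0.08 for those proteins. The value at glaucoma 2W was −0.04 within the female pools and −0.50 within the male pools, beside −0.15 and −0.49 for the cytosolic ribosomal proteins, and with each pool left out in turn it ran from −0.65 to 0.05. The value at glaucoma 3D joined opposite pools, with −0.23 in the female (72 of 82 below 0) and 0.22 in the male (77 of 82 above 0), and ran from −0.24 to 0.22. Ndufs4, an accessory subunit of the complex I matrix arm, was at 169 and 157 TPM at glaucoma 3D against 104 and 91.7 in naïve retina. Its pools did not overlap, and the log2 fold change was 0.73 (SE 0.16, adjusted p = 0.48 in edgeR and 0.036 in DESeq2). Ndufa4 was at 1133 and 1294 TPM in the same libraries against 1823 and 1773 (log2 fold change −0.55, SE 0.29, adjusted p = 0.86). Uqcrq at glaucoma 2W was at 290 and 210.2 TPM against 417 and 417 in naïve retina (−0.77, SE 0.22, adjusted p = 0.76).

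Among the remaining comparisons with naïve tissue the members' medians were 0.16 at crush 3D and 0.01, −0.14 and 0.08 at glaucoma 3D, 2W and 6W in UON, and −0.09 at crush 2W and −0.05, −0.26 and −0.01 at glaucoma 3D, 2W and 6W in MON. In UON at crush 3D the pools went opposite ways, with −0.17 in the female (72 of 82 below 0) and 0.46 in the male (73 of 82 above 0), and leaving out 1 pool moved the median from −0.14 to 0.48. The female and male pools also differed in sign in UON at glaucoma 3D (0.06 and −0.07) and in MON at glaucoma 3D (0.12 and −0.16) and 6W (0.18 and −0.09). In MON at glaucoma 2W 71 of 82 lay below 0. Subunits encoded by the mitochondrial genome could not be set beside the nuclear ones. Their listed values varied among libraries far beyond the groups, mt-Cytb being listed above 0 in every library and mt-Nd2 at 0 in 35 of 36, and their summed share of TPM ran from 0.0537% to 6.75%. Among the nuclear members, 38 were overlapped by another gene, among them Ndufs1 by Eef1b2 and Cox4i1 by Emc8, each on the opposite strand, so their reads cannot be told apart where strand was not used.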

How the data were processed

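Data were 36 bulk RNA-seq libraries, each from RNA of 2 mice of one sex. Per the labels and methods, the authors aligned read pairs by HISAT2 (v2.2.1, GRCm38) and built transcripts by StringTie (v1.3.0, Gencode M25), and use of strand was not given in the sources used here. The deposited gene values are estimated counts made by the authors from StringTie coverage, without normalization. TPM per gene, also deposited by the authors, served for levels between genes. In 18 libraries the deposited TPM were handled as a score, because 25 values just below 0 were set to 0. Deposited FPKM and transcript counts were not used.

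Counts were rounded to whole numbers and tested with edgeR 4.0.16 (R 4.3.3; TMM, filterByExpr at 10 counts and a total of 15, quasi-likelihood F test, Benjamini-Hochberg over all genes tested), with sex as a term. It pairs the naïve tissues, since 1 pool of mice a sex gave all 3. The injury groups were different mice, and in the differences between nerve segments the sex term does not block the mice that gave both. The 6 naïve libraries were fitted together, each injury model was fitted with the naïve libraries of its tissue, and differences between nerve segments were tested as interactions. Adjusted p under 0.05 made a call. Pools were separate animals, so p-values rest on 2 pools a group. The edgeR fit was run on simulated counts with known changes in well-covered genes, at a fixed dispersion and without an effect of sex. That check does not cover low counts or pools as unlike as those of UON crush 2W. Alternatives were DESeq2 1.42.0, its size factors (RLE), no filter, 1 fit to all 36 libraries, no sex term, and each pool left out in turn. Members named were the 3 largest calls in each direction, isoform families and core subunits of each complex; further members were named after their values were seen. Members and lists were chosen with earlier results of these data known. The values of 1 member are not reported here. The promoter motifs were chosen after the expression results, and the NRF1 core was shortened by 1 base after its longer form had been searched; the longer form was in fewer windows, of members and of all genes alike. Atp5if1 was not matched under that symbol. Medians and counts over lists carry no test. Depth, 16158723 to 78054205 estimated counts per library, limits low isoforms such as Cox6a2, with a median of 50.5 counts.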

Additional observations from a re-analysis of the deposited data

How the results depend on the processing

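All named calls kept their direction under every alternative run. Leaving out a pool gave 6 to 13 calls for naïve UON against retina (27 with all pools), 9 to 30 for MON against retina (23), 0 to 2 for UON against MON (1), 0 to 2 for MON at crush 2W (1), 0 to 17 for UON crush against glaucoma at 2W (0), 0 to 2 for the same in retina (0, with 2 without the female glaucoma 2W pool) and 0 to 6 for the UON minus MON response to crush at 2W (0). With a pool left out, the lone pool of its group is assumed to vary like the others. DESeq2 called 36 members in MON against retina, 6 in UON against MON and 3 in MON at crush 2W, and 1 each in UON crush 3D, retina crush 3D, retina crush 2W, retina glaucoma 3D, UON crush against glaucoma at 2W and the response difference to crush 2W. Without the filter on low counts there were 2 calls in UON against MON, 3 in MON at crush 2W and 1 in that response difference. The fit to all 36 libraries gave 1 in UON crush 2W (Ndufs4), 21 in UON crush against glaucoma at 2W and 1 in that response difference. Without the sex term, the replicate block, there were 2 in UON against MON and 2 in MON at crush 2W. The causes were not tested. For DESeq2, no filter and no sex term, the shares of all genes called are not given here. Those counts therefore do not set the members apart from other genes. The other 250 counts of calls stayed within 1.5 times, and of the values of named members 174 stayed on their side of the threshold and 51 lost the call. DESeq2's size factors moved the median of all genes by about 0.10 for the response difference to crush 2W (from -0.11 to 0.00). With 2 pools a group, a difference that was not called is not shown to be absent.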
